A study of Homo sapiens with 3 samples.

Results

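Erlotinib-resistant HCC827 cells were compared with vehicle-treated cells of the same barcoded pool, gene by gene, in RNA sequencing data with 1 library per population. HCC827 is an established human non-small cell lung cancer line whose EGF receptor gene is mutated to an activated form. Before treatment the cells were transduced with ClonTracer, a library of DNA barcodes, and kept as a polyclonal pool, so both populations carry the barcodes and are mixtures of clones. The vehicle population was exposed to 0.1% DMSO for 4 days, and the erlotinib-resistant population to 2 µM erlotinib for 47 days. Erlotinib inhibits the kinase of the EGF receptor. The remaining library came from erlotinib-resistant cells that then received 0.2 µM crizotinib, which inhibits the MET kinase, on top of 2 µM erlotinib for 10 days. It is given beside some results as the dual-resistant value and entered no call.

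Expression is in FPKM, the number of sequenced fragments scaled for transcript length and library size. Of 30866 gene symbols in the table, 9610 had 5 FPKM or more in 1 of the 2 libraries and a value above 0 in both, and these are the genes described here. Among them, 8484 reached 5 FPKM in both libraries, 517 with vehicle alone and 609 in the erlotinib-resistant library alone. A gene is called higher or lower when its log2 difference of FPKM + 1, erlotinib-resistant minus vehicle, was at least 1 in size, that is 2-fold. With 1 library per population no call has a replicate, an error or a test. Resistance, the presence of the drug and the time in culture differed together and cannot be told apart. Nor can a smaller share of cells expressing a gene be told apart from less RNA of that gene per cell.

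The EGF receptor is a cell-surface kinase that drives growth of this cell line through the RAS, ERK and PI3 kinase pathways. The receptor MET feeds the same pathways, and extra copies of its gene are a known route of resistance to EGF receptor inhibitors in lung cancer. Interferons act on cells through transcription factors that include STAT2 and IRF9, which bind a short promoter element and switch on a broad set of antiviral and antigen presentation genes. Genes of mitosis are instead held back in resting cells through another short element near their start, the cell cycle homology region, and are transcribed late in the cycle.

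Among the gene lists examined, interferon-induced effectors held the most lower genes and mitosis genes the most higher ones. The 150 bases before the start of 4 genes of each are printed for the elements they hold. They are the genes with the largest difference among those with a match in these bases. The sequences are from RefSeq on GRCh38.p14, on the strand of the gene, from 5′ to 3′. Capitals mark GAAANNGAA, the core of the interferon element, or its complement, in the first 4, and TTTGAA, the cell cycle homology region, or its complement, in the last 4. The windows are chr10:89392473-89392622 (plus strand), chr1:27672193-27672342 (minus), chr11:313890-314039 (plus), chr14:94110586-94110735 (plus), chr1:197146670-197146819 (minus), chr1:43358831-43358980 (plus), chr7:36389712-36389861 (plus) and chr15:90994536-90994685 (minus).
IFIT1: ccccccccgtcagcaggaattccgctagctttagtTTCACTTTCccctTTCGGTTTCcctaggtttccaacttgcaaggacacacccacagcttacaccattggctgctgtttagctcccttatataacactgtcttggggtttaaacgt
IFI6: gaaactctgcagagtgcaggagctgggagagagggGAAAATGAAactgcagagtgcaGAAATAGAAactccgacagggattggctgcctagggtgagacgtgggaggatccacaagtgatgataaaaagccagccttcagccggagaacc
IFITM1: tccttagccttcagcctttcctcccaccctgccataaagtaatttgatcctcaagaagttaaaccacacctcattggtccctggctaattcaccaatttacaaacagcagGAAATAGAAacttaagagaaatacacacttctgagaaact
IFI27: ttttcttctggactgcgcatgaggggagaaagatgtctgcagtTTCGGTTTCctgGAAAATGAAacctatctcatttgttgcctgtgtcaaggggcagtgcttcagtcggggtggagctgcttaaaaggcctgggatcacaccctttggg
ASPM: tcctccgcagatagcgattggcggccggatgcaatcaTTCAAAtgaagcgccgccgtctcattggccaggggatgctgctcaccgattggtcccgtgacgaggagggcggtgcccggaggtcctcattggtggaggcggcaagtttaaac
CDC20: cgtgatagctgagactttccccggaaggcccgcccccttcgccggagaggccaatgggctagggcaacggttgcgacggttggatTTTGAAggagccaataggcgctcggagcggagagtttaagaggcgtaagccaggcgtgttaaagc
ANLN: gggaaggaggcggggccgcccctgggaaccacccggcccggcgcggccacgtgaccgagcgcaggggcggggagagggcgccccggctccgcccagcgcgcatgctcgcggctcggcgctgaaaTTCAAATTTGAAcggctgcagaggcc
PRC1: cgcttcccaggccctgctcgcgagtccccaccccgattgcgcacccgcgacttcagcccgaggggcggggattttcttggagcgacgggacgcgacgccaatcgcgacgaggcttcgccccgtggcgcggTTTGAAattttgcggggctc

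Over the 250 bases before the first listed start of 7811 genes with a RefSeq promoter, GAAANNGAA was found on either strand in 438 (5.61%). Among the interferon-induced effectors it was found in 23 of 39 (59.0%), and among class I antigen presentation genes in 5 of 9 (55.6%). TTTGAA was found in 625 of the 7811 (8.0%), in 31 of 66 mitosis genes (47.0%) and in 1 of 31 DNA replication genes (3.23%). CCAAT, a common promoter box, was found in 35.6% of all, in 68.2% of the mitosis genes and in 54.8% of the DNA replication genes. TGANTCA, the AP-1 element, was in 3.66% of all promoters and in 5 of 16 of the chemokine and cytokine genes (31.3%). TNGCGTG, which holds the core to which the aryl hydrocarbon receptor binds, was in 6.54% of all and in 0 of 5 of the aryl hydrocarbon receptor list. None of these motifs contains another, although a GAAANNGAA match can overlap a TTTGAA match. A match is a description of these bases and not evidence of a factor bound there.

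In all, 366 genes were higher (3.81%) and 489 lower (5.09%), and 8755 (91.1%) lay within 2-fold. By 4-fold or more, 17 genes were higher (0.177%) and 130 lower (1.35%), so the largest differences were mostly toward lower levels. The median difference was 0.00 on the log2 scale, the lowest 1% of genes lay under -2.25 and the highest 1% above 1.47. Of the higher genes 149 stood under 5 FPKM with vehicle, and of the lower genes 216 stood under 5 FPKM in the erlotinib-resistant library. Scaling both libraries to the same sum of FPKM moved the median by 0.17 and the share of higher genes among the calls from 42.8% to 60.7%, with 586 higher and 380 lower. Differences below are as deposited.

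**Figure D1:**
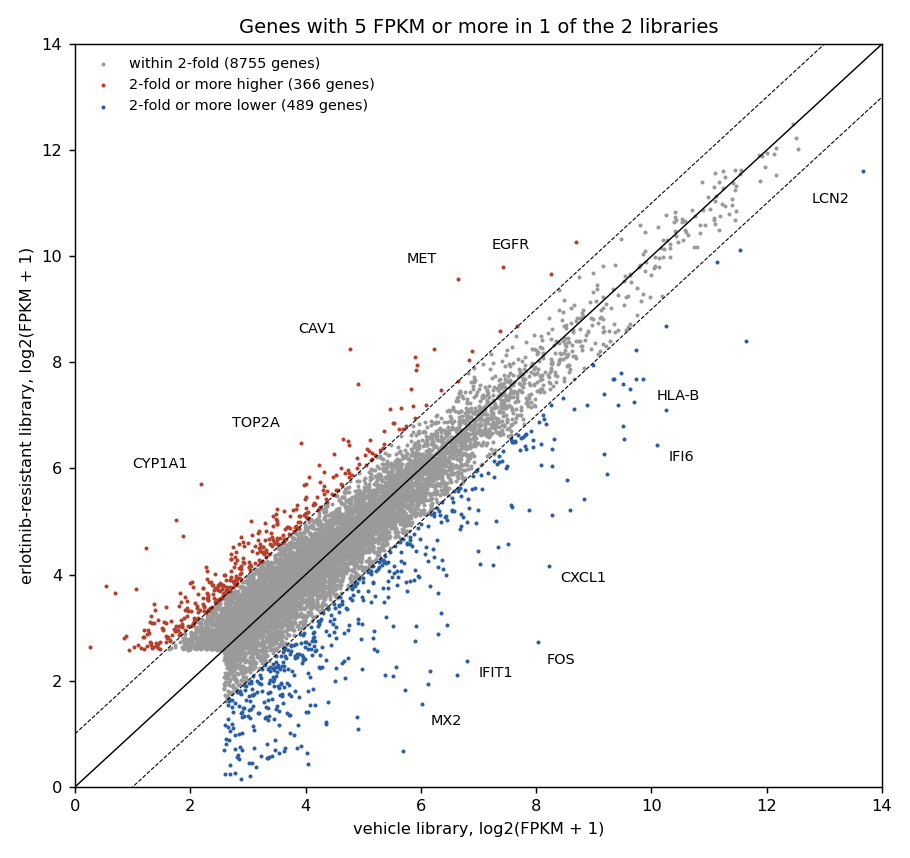
Level of each of 9610 genes with vehicle (x axis) and in the erlotinib-resistant library (y axis), both as log2(FPKM + 1), 1 point per gene, with the dashed lines at 2-fold. The 366 higher and 489 lower genes lie outside the dashed lines, and the lower genes reach farther from the diagonal (FOS at -5.31) than the higher ones (CYP1A1 at 3.52).

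The limit of 5 FPKM set where the gene set ends. Just inside it were C4orf42 at 5.003 FPKM with vehicle and SPP1 at 5.004 in the erlotinib-resistant library. Just outside were LRRC45 and ZNF271, at 4.996 and 4.995 with vehicle, and MB21D2, at 4.995 in the erlotinib-resistant library. A further 81 genes reached the limit in 1 library and were listed at exactly 0 in the other, 30 with vehicle and 51 in the erlotinib-resistant library. Because a listed 0 may stand for an estimate that failed, no fold is given for them. Of the 81, 45 were small RNAs or loci without a gene name. The 5 highest in the erlotinib-resistant library with 0 listed for vehicle were MIR4321, MIR3662, DDT, SMAGP and TNFRSF6B, between 42.8 and 866 FPKM. The 5 highest with vehicle and 0 listed in the erlotinib-resistant library were SNORD69, SNORD104, SNORD88C, MIR5047 and uc022cdi, between 36.8 and 1585 FPKM.

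The sum of FPKM was 596084 with vehicle and 528920 in the erlotinib-resistant library. Judged by the smallest values above 0 among single-exon genes, a 1 kb transcript at the limit of 5 FPKM rested on roughly 341 fragments with vehicle and 237 in the other library, so counting error at the limit is small beside a 2-fold difference. Differences moved with transcript length and GC content across all genes. With genes ranked into 5 equal bins, the median was -0.25 in the bin of the shortest transcripts and 0.33 in that of the longest, and 0.20 at the lowest GC content and -0.16 at the highest. Values with the length or GC trend removed are given beside several results. All 10 epithelial carcinoma markers stood above 5 FPKM in both libraries, with sums of 6603 and 6177. The endothelial and erythroid markers were under 1 FPKM in both, 5 of 6 fibroblast markers were under 1 with COL1A1 at 3.84 and 2.48, and of 6 leukocyte markers CD68 stood at 45.5 and 115 and CD14 at 4.10 and 0.597 while PTPRC and CD3E were at or near 0. Of the lung lineage markers, NKX2-1 stood at 56.0 and 40.0 and NAPSA at 147 and 81.4, while SFTPB was low in both libraries, at 0.663 and 2.00.

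The receptor that erlotinib inhibits and its relatives come first. EGFR (Entrez 1956, chromosome 7, 55086725 to 55275031, GRCh37) stood at 171 FPKM with vehicle and 885 in the erlotinib-resistant library, 5.14-fold higher, and at 698 in the dual-resistant library. Of 8 measured receptors and ligands of the EGF family, 4 were higher and 0 lower (median difference 0.67, and 0.01 with a limit of 1 FPKM). The other 3 were ligands. NRG1, the ligand of ERBB3 and ERBB4, stood at 1.63 and 9.10 FPKM, BTC at 4.24 and 12.9, and EREG at 56.8 and 144, so NRG1 and BTC reached 5 FPKM in the erlotinib-resistant library alone. The partner receptors ERBB2 (37.8 and 29.5 FPKM) and ERBB3 (32.8 and 23.3) and the ligands AREG (6.99 and 7.06) and TGFA (6.92 and 6.35) lay within 2-fold, so the ligand genes did not move as a block.

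MET (Entrez 4233, chromosome 7, 116312459 to 116438440) stood at 98.9 FPKM with vehicle and 763 in the erlotinib-resistant library, 7.65-fold higher, and at 96.2 in the dual-resistant library. It was the widest difference among 12 other receptor tyrosine kinases, of which 2 were higher and 1 lower. Their median of 0.34 became -0.02 with the length trend removed. EPHA2, an ephrin receptor, stood at 28.6 and 63.6 FPKM. DDR1, a collagen receptor, stood at 98.6 and 46.4, and its lower call was lost with equal sums. Among 29 RAS, RAF, PI3 kinase and adaptor genes 2 were higher and 0 lower, the median being 0.24, or 0.02 with the length trend removed. They were PTPN11, the phosphatase that links receptors to RAS, at 26.0 and 59.2 FPKM, and CBL, which tags activated receptors with ubiquitin, at 3.16 and 7.75.

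Genes that report ERK pathway output did not share a direction, with 2 of 19 higher, 2 lower and a median of 0.23, which turned to -0.07 with the length trend removed. DUSP6, a phosphatase that limits ERK, stood at 178 FPKM with vehicle and 63.6 in the erlotinib-resistant library, and SPRY1, another feedback inhibitor, at 21.5 and 7.998. ETV1, an ETS transcription factor, stood at 1.38 and 5.27, and ERRFI1, an inhibitor of the EGF receptor itself, at 112 and 222, a difference of 0.98 just inside the limit. ERK output genes thus stood on both sides of 0.

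AP-1 and the immediate early genes, which are transcribed within minutes of growth factor or stress signals, had 9 of 20 genes lower and 1 higher (median -0.64). FOS (chromosome 14, 75745481 to 75748937) stood at 261 FPKM with vehicle and 5.60 in the erlotinib-resistant library, 39.7-fold lower and the lowest of all 9610 genes. FOSB stood at 50.5 and 0.602, 32.2-fold lower. EGR1 stood at 452 and 42.0, and NR4A1 at 8.997 and 0.753. Among the other AP-1 subunits, named after their values were seen, JUN stood at 310 and 81.7 and JUNB at 158 and 66.5, both lower. The FOS relatives FOSL1 and FOSL2 stood above vehicle. FOSL1, which ERK signalling stabilises, stood at 67.3 and 146 FPKM, 2.15-fold higher, and FOSL2 at 23.9 and 43.2, within 2-fold. MYC, another immediate early gene, stood at 201 and 360, also within 2-fold. In the dual-resistant library FOS stood at 22.3 and FOSB at 8.29.

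Interferon-induced effectors, the antiviral products of the pathway, held 0 higher genes and 37 lower ones of 48, of which 24 by 4-fold or more, with a median of -1.93 against 0.00 over all genes. MX2, a GTPase that blocks virus entry into the nucleus (chromosome 21, 42733950 to 42780869), stood at 64.1 FPKM with vehicle and 1.96 in the erlotinib-resistant library, 22.0-fold lower. IFIT1, which binds foreign RNA ends (chromosome 10, 91152322 to 91163744), stood at 110 and 4.20, 21.4-fold lower. IFI6 stood at 1089 and 86.0, and OAS2, a sensor of double-stranded RNA, at 77.9 and 6.39. The least different members were GBP2 (19.3 and 17.7 FPKM), EIF2AK2 (32.4 and 26.2), TRIM25 (43.8 and 45.6) and PARP14 (25.0 and 27.3). The 48 effectors thus ran from a difference of -4.46 to 0.12. The dual-resistant library held MX2 at 4.55, IFIT1 at 8.93, IFI6 at 96.5 and OAS2 at 5.70.

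The effectors whose promoters are printed above for the interferon element include IFITM1, a membrane protein that blocks virus fusion, at 381 and 36.1 FPKM, and IFI27 at 3181 and 338. Among effectors with a promoter in the reference, the 23 with GAAANNGAA had a median of -2.30, with 19 lower. The 16 without it had a median of -1.57, with 10 lower. Both groups were therefore low, and the difference between them has no test. In IFIT1, IFI6 and IFI27 the 150 bases hold 2 matches each, the nearest 93, 84 and 86 bases before the start, and in IFITM1 1 match, 31 bases before it.

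Sensors and relays act upstream of the effectors. Of 6 sensors of foreign nucleic acid 3 were lower, with a median of -1.09. DDX58, which encodes RIG-I, stood at 35.2 FPKM with vehicle and 6.63 in the erlotinib-resistant library, and IFIH1, which encodes MDA5, at 33.0 and 11.9. MAVS, the adaptor of both, stood at 10.7 and 13.05. Of 12 receptors and relays 4 were lower, with a median of -0.31. Those 4 were IRF7 (69.0 and 18.2), IRF9 (76.5 and 24.2), STAT2 (45.4 and 15.3) and IFNGR1, a chain of the interferon gamma receptor (66.9 and 21.8). The interferon alpha receptor chains IFNAR1 (11.9 and 15.3) and IFNAR2 (8.61 and 15.4) lay within 2-fold.

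Antigen presentation followed the effectors. Class I molecules show peptides from inside the cell to T cells, and of 12 measured genes 7 were lower and 0 higher, the median being -1.19. HLA-B stood at 919 FPKM with vehicle and 206 in the erlotinib-resistant library, HLA-C at 473 and 146 and HLA-F at 73.5 and 19.02. HLA genes are near copies of each other, so their values are uncertain where reads could be split between them. The peptide transporter TAP2 (34.4 and 30.8), the loading factor TAPBP (40.9 and 39.3) and the trimming enzyme ERAP1 (26.2 and 23.4) differed by less than 0.2 on the log2 scale. Class II genes were lower for 5 of 5 measured, with a median of -1.98, which was -1.13 with a pseudocount of 5 and -1.18 with a limit of 20 FPKM. Of the 5, 4 reached 5 FPKM with vehicle alone, such as HLA-DRB1 at 13.6 and 1.26 FPKM and CD74 at 9.26 and 1.51. CTSS, the class II pathway protease, stood at 41.0 and 17.6. Of the immunoproteasome, the interferon-induced form of the protein-degrading complex, PSMB8 alone of 5 was lower, at 205 and 98.2 FPKM, and it came within 2-fold with equal sums. The 31 genes of the constitutive proteasome all lay within 2-fold, with a median of -0.24.

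Chemokines and cytokines had 15 of 21 genes lower and 1 higher (median -1.55). CCL20, which draws immature dendritic cells, stood at 97.8 FPKM with vehicle and 3.28 in the erlotinib-resistant library, 23.1-fold lower. The neutrophil chemokines CXCL1 (298 and 16.8), IL8 (372 and 53.8) and CXCL2 (233 and 36.0) were also lower. The exception was IL18, at 11.4 and 23.8. CSF2 (6.90 and 13.6), LIF (10.8 and 18.5) and IL6 (4.00 and 6.21) had values above those of vehicle but within 2-fold. NF-kB subunits and feedback targets, which many of these chemokines share as regulators, had 2 of 16 genes lower and 1 higher, and a median of -0.05 that turned to 0.12 with equal sums. The 2 were TNFAIP2 (240 and 104) and NFKBIA, the inhibitor of NF-kB (188 and 93.3), the latter within 2-fold with equal sums, and the higher one was REL (1.70 and 5.48).

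Complement, acute phase and antimicrobial proteins, secreted products of airway and liver epithelium, held 0 higher genes and 17 lower ones of 21, of which 13 by 4-fold or more, with a median of -2.25. CP, the copper carrier ceruloplasmin, stood at 70.3 FPKM with vehicle and 3.54 in the erlotinib-resistant library. S100A9, a subunit of calprotectin, stood at 598 and 58.7, S100A7 at 19.5 and 1.26, and SAA1, a serum amyloid, at 574 and 76.5. LCN2, a lipocalin that withholds iron from bacteria and the gene with the highest FPKM with vehicle, stood at 13088 and 3107. SERPINA1 (22.4 and 27.0) and DEFB1 (5.49 and 7.98) were within 2-fold. The interferon, antigen presentation, chemokine, NF-kB and complement lists held 146 of the 9610 genes (1.52%) and 91 of the 489 lower genes (18.6%). Of the 130 genes lower by 4-fold or more they held 49 (37.7%).

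**Figure D2:**
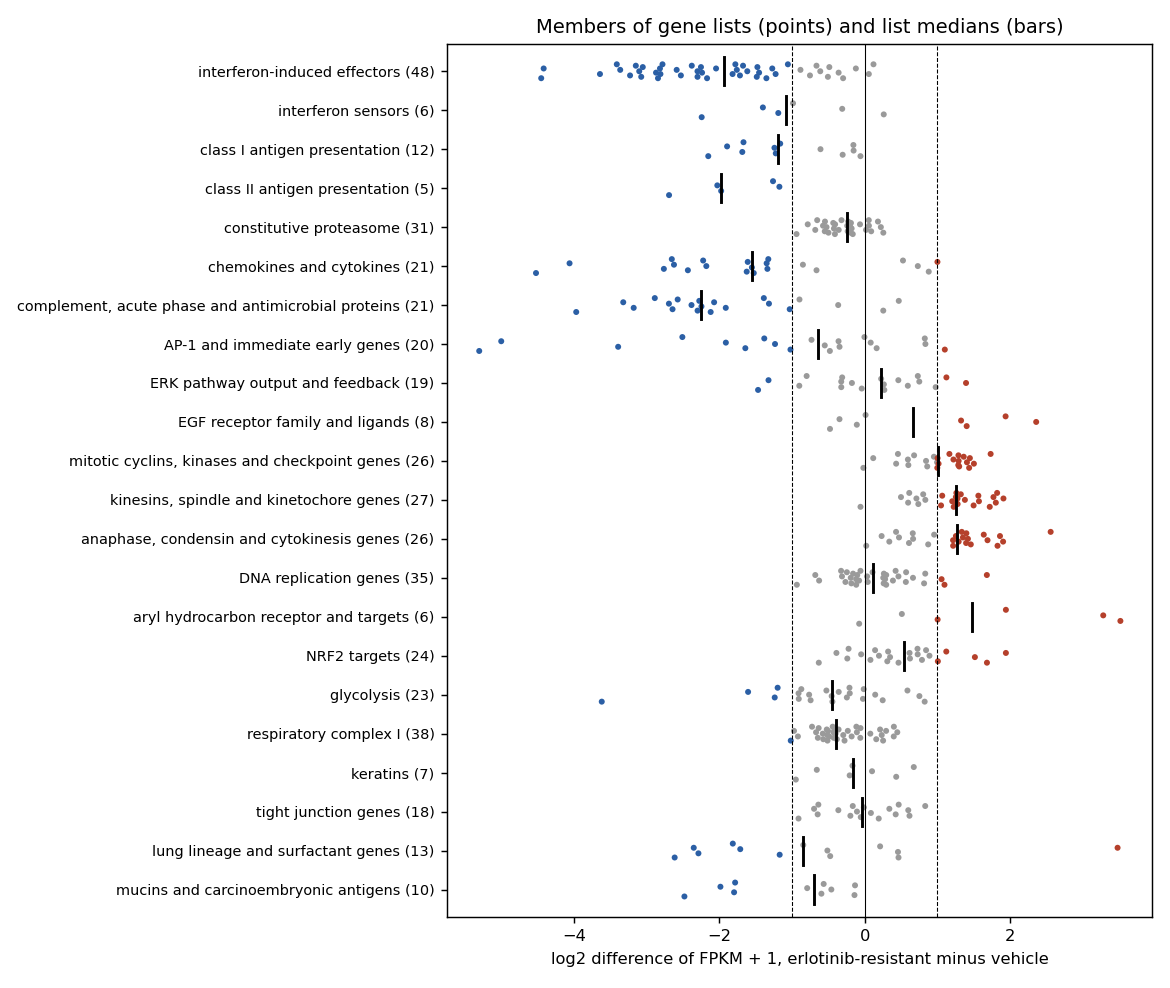
Log2 difference of FPKM + 1, erlotinib-resistant minus vehicle, for the measured members (points, number in brackets) of 22 gene lists, with the list median as a bar and dashed lines at 2-fold. Interferon-induced effectors (median -1.93) and the complement list (-2.25) lie left of 0, the 3 mitosis lists (1.01, 1.26 and 1.28) right of it, and the constitutive proteasome (-0.24) and keratins (-0.17) near it.

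Mitosis genes were higher for 50 of the 79 that were measured (median 1.23), and 0 of them were lower. Some, such as BUB1B, ASPM, CENPF and PRC1, reached the limit of 5 FPKM only in the erlotinib-resistant library, where they are high. In the list of mitotic cyclins, kinases and checkpoint genes 15 of 26 were higher. CDK1, the kinase that drives entry into mitosis, stood at 10.3 FPKM with vehicle and 36.7 in the erlotinib-resistant library, BUB1B at 3.38 and 11.4, and AURKB at 12.7 and 36.1. PKMYT1, which holds CDK1 back, stood at 4.66 and 5.14. Of the kinesins, spindle and kinetochore genes 19 of 27 were higher. ASPM, a spindle pole protein, stood at 1.48 and 8.35, CENPF at 2.54 and 11.6 and PRC1, which bundles the central spindle, at 3.89 and 15.7, while KIF22 was level at 18.5 and 17.7.

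Of the anaphase, condensin and cytokinesis genes 16 of 26 were higher. TOP2A, the topoisomerase that untangles chromosomes (chromosome 17, 38544773 to 38574202), stood at 14.1 FPKM with vehicle and 88.2 in the erlotinib-resistant library, 5.91-fold higher, and at 73.5 in the dual-resistant library. CDC20, the activator of the anaphase-promoting complex, stood at 24.1 and 93.1, and ANLN, a cytokinesis scaffold, at 6.35 and 25.1. FZR1, which activates the same complex after mitosis, stood at 13.4 and 13.7. With the length trend removed, the medians of the 3 lists were 1.09, 1.27 and 1.28, against 1.01, 1.26 and 1.28 as deposited. Their lowest medians over all alternatives were 0.76, 0.87 and 0.80, each under the 2-fold limit. Among mitosis genes with a promoter in the reference, those with TTTGAA before their start had a median of 1.38, with 26 of 31 higher. Those without it had a median of 0.997, with 17 of 35 higher, and the difference between the groups has no test. The matches in ASPM, CDC20, ANLN and PRC1 lie 107, 59, 14 and 14 bases before the start, and ANLN holds a second match that adjoins the first.

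Genes of other cell cycle stages did not move with those of mitosis. Of 35 DNA replication genes 3 were higher and 0 lower, the median being 0.11. The 3 were TYMS, which makes thymidylate (5.54 and 20.001 FPKM), CDT1 (8.74 and 19.9) and MCM7 (52.2 and 110), whereas MCM3, a subunit of the same helicase as MCM7, stood at 26.7 and 13.5 and PCNA at 87.6 and 56.3. MCM7 lies on chromosome 7q, whose genes are described further on. Of 14 G1 genes 1 was higher and 2 lower. CDK6, also on 7q, stood at 5.64 and 21.9, while its relative CDK4 stood at 2791 and 1648. CCND3, a cyclin of both, stood at 33.98 and 10.2, and CDKN1A, the p21 inhibitor, at 42.0 and 13.7. Homologous recombination genes lay within 2-fold for 8 of 8, with FANCI the highest at 3.47 and 7.66. Kinesins taken as a family by symbol, most of which carry cargo in any cell, were higher for 7 of 21, with KIF18B (1.98 and 9.43) and KIF20A (1.90 and 7.63) in front. Among 22 listed p53 target genes 17 were measured and 2 were lower, CDKN1A and TP53I3 (6.84 and 2.72), the latter within 2-fold with equal sums.

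**Figure D3:**
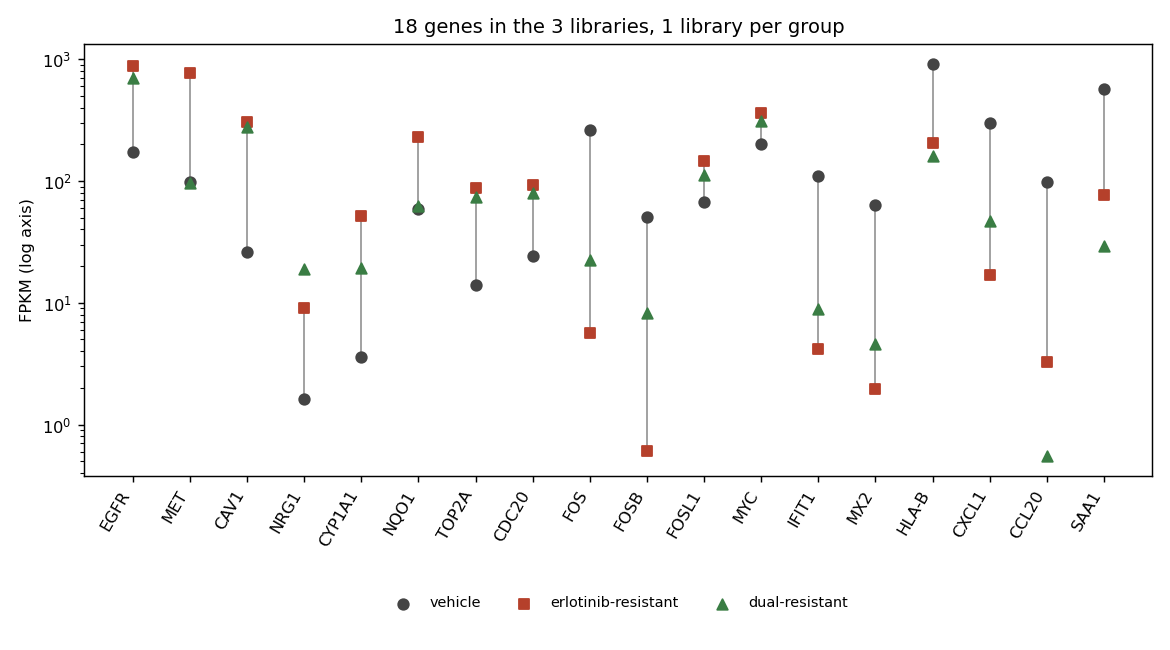
FPKM of 18 genes on a log axis, with 1 symbol per library and a line joining the vehicle and erlotinib-resistant values. EGFR, MET, CAV1 and CYP1A1 stood above vehicle in the erlotinib-resistant library and FOS, FOSB, IFIT1 and MX2 below it, and MET alone among the first 4 is back near the vehicle value in the dual-resistant library, at 96.2 against 98.9.

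The aryl hydrocarbon receptor is a factor that responds to planar aromatic compounds and induces enzymes that oxidise them. Of 10 listed genes, the receptor genes and targets, 6 were measured, with 4 higher and 0 lower (median 1.48). Of the 4, CYP1A1 and CYP1B1 reached 5 FPKM in the erlotinib-resistant library alone. The unmeasured targets CYP1A2, ALDH3A1 and UGT1A6 were under 1 FPKM in both libraries, and AHRR was listed at 0 and 3.15. CYP1A1 (chromosome 15, 75011883 to 75017877) stood at 3.57 FPKM with vehicle and 51.5 in the erlotinib-resistant library, 11.5-fold higher and the highest of all 9610 genes. CYP1B1 stood at 1.33 and 21.8, and TIPARP, a repressor of the receptor, at 17.6 and 36.3. The receptor gene AHR itself (32.9 and 31.2) and its partner ARNT (6.05 and 9.05) lay within 2-fold. The measured targets thus differed and the receptor genes did not pass the limit. NQO1, which belongs to this list and to the NRF2 targets, stood at 59.0 and 230.

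Of 24 targets of NRF2, the regulator of antioxidant genes, 5 were higher and 0 lower, the median being 0.54. UGDH stood at 26.1 FPKM with vehicle and 86.1 in the erlotinib-resistant library and the transporter ABCC2 at 3.66 and 12.4. HMOX1 (7.17 and 6.003), PRDX1 (351 and 268) and FTH1, the ferritin heavy chain (4578 and 2953), were not higher. Among 12 aldo-keto reductases and aldehyde dehydrogenases ALDH1A3, which makes retinoic acid, was the 1 gene called, at 73.7 and 304, 4.09-fold higher. Of 13 glutathione and glucuronide transferase genes 11 lay within 2-fold and 2 were lower, GSTP1 at 1214 and 412 and GSTA4 at 15.9 and 3.21. Of 10 drug efflux transporters ABCC2 alone was higher.

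Stress and protein folding genes were little different or lower. Of 19 cytosolic heat shock genes 3 were lower, with a median of -0.55. HSPA8 stood at 845 FPKM with vehicle and 299 in the erlotinib-resistant library, HSPA1B at 59.1 and 20.6, and their co-chaperone DNAJA1 at 169 and 69.5, while the mitochondrial HSPD1 was level at 413 and 437. All 23 endoplasmic reticulum chaperone genes lay within 2-fold. Of 22 genes of ATF4, the factor of the amino acid response, 4 were lower and 0 higher, the median being -0.62. NUPR1 stood at 102 and 29.3 and CHAC1, which breaks down glutathione, at 46.7 and 15.7. ASNS, asparagine synthetase and a classic target of ATF4 that lies on 7q, stood at 177 and 282. Of 20 aminoacyl-tRNA synthetases 1 was lower, WARS, at 727 and 191, which is also induced by interferon.

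Metabolic genes differed at single points. Of 23 glycolysis genes 4 were lower, with a median of -0.44. They were the glucose transporter SLC2A3 (15.6 FPKM with vehicle and 0.344 in the erlotinib-resistant library), PFKFB4 (6.65 and 1.51), the lactate transporter SLC16A3 (163 and 68.4) and ENO2 (42.2 and 17.8). Of 16 hypoxia-response genes 4 were lower, among them EGLN3, an oxygen sensor, at 41.1 and 8.15, and VEGFA, the vessel growth factor, at 247 and 91.6. Respiratory chain genes shifted little. Complex I had 1 of 38 lower (0 with equal sums) and a median of -0.39, which came to -0.16 with the length trend removed, and complexes III and IV and ATP synthase had none called of 35. The mitochondrial ribosome had 1 of 76 lower, MRPL18, and a median of -0.33 that came to -0.08 with the length trend removed. Of 22 cholesterol synthesis genes 1 was lower (0 with equal sums) and 1 higher, the latter CYP51A1, on 7q (20.9 and 44.7). Of 13 fatty acid genes ACSL1 was lower (30.3 and 3.65) and ACSL4 higher (34.7 and 71.3). Cytosolic ribosomal proteins lay within 2-fold for 80 of 80, with a median of 0.02.

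Epithelial structural genes stood within 2-fold in nearly every case. All 7 measured keratins, 18 tight junction genes and 17 desmosome and adherens junction genes lay within 2-fold, with medians of -0.17, -0.03 and 0.12, the first 2 of which turned sign with equal sums. KRT7 stood at 1357 FPKM with vehicle and 1835 in the erlotinib-resistant library, CDH1, which encodes E-cadherin, at 172 and 194, and EPCAM at 306 and 345. Of 19 epithelial regulators 2 were lower, among them the membrane protease PRSS8 (114 and 37.2), and the splicing regulator ESRP1 stood at 122 and 141. Membrane serine proteases as a family were lower for 4 of 7, among them PRSS22 (85.0 and 33.5) and HPN (10.6 and 2.63).

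Only 6 of 25 mesenchymal genes reached 5 FPKM, and those 6 did not agree in direction. SNAI2, a transition factor, stood at 1.08 FPKM with vehicle and 12.2 in the erlotinib-resistant library, LOXL2, a collagen cross-linking enzyme, at 2.999 and 13.3, and VIM, vimentin, at 7.04 and 23.3. FN1, fibronectin, stood at 101 and 27.9. The median of 0.64 became -0.39 with a limit of 1 FPKM and -0.11 with a limit of 20 FPKM, so the list has no stable direction. In the dual-resistant library VIM stood at 414 and LOXL2 at 121, far above either level.

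Genes of the airway and alveolar lineage had 6 of 13 measured members lower and 1 higher (median -0.85). SLC34A2, the phosphate transporter of alveolar type II cells, stood at 16.9 FPKM with vehicle and 1.92 in the erlotinib-resistant library, SFTPA2, a surfactant protein, at 11.8 and 1.61, and LAMP3 at 29.1 and 7.55. AQP5 stood at 5.04 and 0.181. SLC34A2, SFTPA2 and AQP5 thus reached 5 FPKM with vehicle alone. The higher gene was CAV1. Mucins and carcinoembryonic antigens were lower for 4 of 10, namely CEACAM5 (44.9 and 7.21), CEACAM6 (123 and 30.3), CEACAM1 (8.12 and 1.62) and MUC1 (127 and 36.1), while MUC5B was level at 34.9 and 31.5. Of 6 squamous genes 3 were lower, SPRR2A (11.3 and 0.598), TP63, the basal cell factor (8.83 and 1.45), and SOX2 (39.9 and 10.2). CEACAM1, SPRR2A and TP63 likewise reached 5 FPKM with vehicle alone. The squamous median of -1.17 became -0.47 with a limit of 1 FPKM. MIR205HG, a host transcript of basal cells, stood at 14.1 and 0.704. Of 12 S100 genes 4 were lower and they include S100P (735 and 92.8), whereas S100A6 (2184 and 2115) and S100A10 (165 and 205) were level.

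Matrix and adhesion genes held more higher than lower calls, but many have long transcripts. With the length trend removed, the median of the laminins and matrix proteins went from 0.35 to -0.01. That of the integrins went from 0.11 to -0.05, and that of the matrix proteases and inhibitors from 0.27 to 0.06. Of 16 laminins and matrix proteins 5 were higher and 1 lower. LAMB1, on 7q, stood at 25.7 FPKM with vehicle and 90.3 in the erlotinib-resistant library, LAMA3 at 11.5 and 28.1 and the osteopontin gene SPP1 at 0.921 and 5.004. Of 11 integrins 2 were higher, ITGB1 (164 and 384) and ITGA6 (23.6 and 51.5), which pair as a laminin receptor. Of 11 matrix proteases and inhibitors PLAU, the urokinase, was higher (203 and 411) and MMP7 lower (7.63 and 0.657).

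Signalling targets outside the EGF receptor pathway split. Of 17 YAP and TEAD targets 3 were higher and 1 lower. TGFB2 stood at 8.94 FPKM with vehicle and 27.2 in the erlotinib-resistant library and MYOF at 44.5 and 115, but CTGF, the best known target, at 58.8 and 5.68. Of 8 WNT targets and inhibitors 2 were higher, the inhibitor DKK1 (1.58 and 9.83) and the ligand WNT7B (10.3 and 31.1), and SOX9 was lower (6.28 and 2.40), a call lost with equal sums. Of 11 NOTCH genes 2 were lower, the target HES1 (77.7 and 16.6) and LFNG, which modifies the receptors (25.2 and 9.27). Of 12 checkpoint and natural killer ligands CD274, which encodes PD-L1, was higher (4.91 and 13.03) and LGALS9 lower (10.0 and 0.625). BCL2 family genes lay within 2-fold for 11 of 12, with BAD lower (40.3 and 19.4) as deposited but not with equal sums. Of 27 lysosome genes 6 were lower (3 with equal sums), led by GPNMB, a melanosome and lysosome glycoprotein, at 68.7 and 2.81, 18.3-fold lower.

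Several of the 15 highest genes belong to no list. PRR11 (chromosome 17, 57232860 to 57284070), a gene of S to G2 progression, stood at 2.68 FPKM with vehicle and 25.4 in the erlotinib-resistant library. GALNT9, a glycosyltransferase, stood at 0.624 and 11.5. MIR100HG, a host transcript of the miR-100 cluster (chromosome 11, 121959811 to 122238467), stood at 0.448 and 12.7, and uc001pye, an unnamed transcript that lies within its bounds, at 0.192 and 5.25. Strand was not given in the sources used here, so reads of overlapping genes cannot be told apart. Among the 15 lowest outside the lists were PAEP, the secreted glycodelin (52.0 and 2.52), TCN1, a vitamin B12 carrier (29.1 and 1.14), ST6GALNAC1, a sialyltransferase (28.7 and 1.505), and TRPC6, a cation channel (44.5 and 3.25). The 62 lists together held 972 genes (10.1% of all), 26.8% of the higher and 32.3% of the lower genes.

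Along the genome, chromosome 7 held the largest share of higher genes. Of its 437 protein-coding genes 48 were higher (10.98%) and 19 lower (4.35%), against 3.67% and 4.99% of all 9227 protein-coding genes. It held 14.2% of the protein-coding genes called higher. By median difference the highest chromosomes were 18 (0.30), 13 (0.22) and 7 (0.18), and the lowest were 6 (-0.21), 20 (-0.18) and 5 (-0.17). With the GC trend removed, chromosomes 18, 13 and 7 came to 0.17, 0.12 and 0.15, and chromosomes 6, 20 and 5 to -0.25, -0.15 and -0.24. On chromosome 18, 6 of 119 genes were higher and none lower. Chromosome 19 had 2 of 612 genes higher (0.327%), the smallest share, and 37 lower (6.05%). Its transcripts had the highest median GC content (59.5%) and the shortest median length (2782 bases) of these chromosomes. Its median difference of -0.11 came to 0.01 with the GC trend removed and to -0.03 with the length trend removed.

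**Figure D4:**
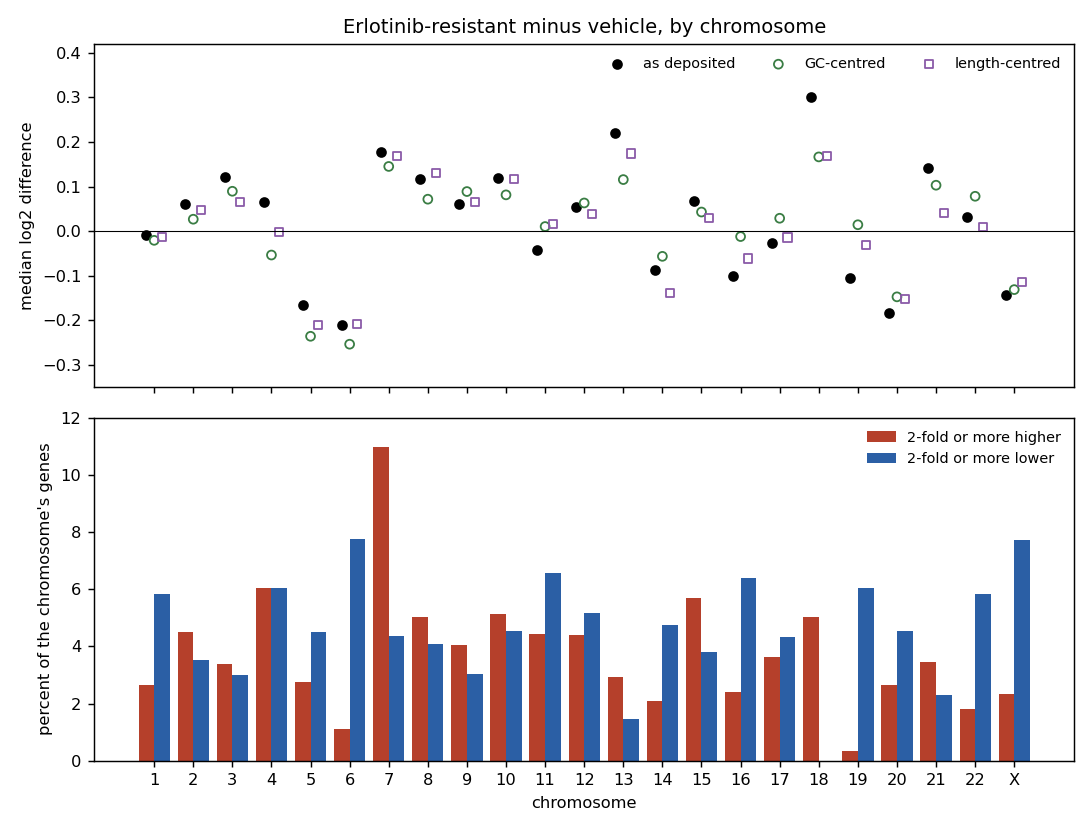
Median log2 difference per chromosome (top, as deposited and with the GC or length trend removed) and percent of the chromosome's protein-coding genes that were higher or lower by 2-fold or more (bottom). Chromosome 7 has the tallest bar of higher genes (10.98%) and chromosome 19 the shortest (0.327%), while chromosomes 18 (0.30) and 6 (-0.21) have the highest and lowest medians.

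The medians along chromosome 6 were uneven. Its genes from 20 to 40 Mb had a median of -0.40, with 17 of 149 lower and 31 above 0, and those from 40 to 60 Mb a median of -0.35. From 160 to 180 Mb the median was also -0.35, with 5 of 19 above 0, and from 120 to 140 Mb it was -0.18, with 7 of 38 lower. Genes from 0 to 20 Mb, in contrast, had a median of 0.24, with 38 of 50 above 0. Without its HLA genes the chromosome's median was -0.20 over 444 genes, 27 of them lower. On chromosome 18 the medians were 0.30, 0.39 and 0.33 for the stretches starting at 0, 20 and 40 Mb and 0.07 beyond 60 Mb. Chromosome 5 had a median under 0 in each stretch of 20 Mb, from -0.28 to -0.00, but a median of 0.00 over the whole chromosome with equal sums.

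Runs of 11 neighbouring protein-coding genes showed where differences clustered. Of 8996 such overlapping windows 10 had a median of 1 or more, all 10 on chromosome 7, and 6 had a median of -1 or less. The highest window ran from ZNF277 to CAPZA2 (chromosome 7, 111846643 to 116559313), with a median of 1.58 and 8 of 11 genes higher. It holds CAV1, the main protein of caveolae, at 26.2 FPKM with vehicle and 304 in the erlotinib-resistant library, CAV2 at 29.1 and 192, MET, CAPZA2, an actin capping subunit, at 58.6 and 275, and TES, a focal adhesion protein, at 60.1 and 245. The table's intervals for CAV1 and CAV2 overlap, so reads could be shared between them. Of 7 measured caveolae genes 3 were higher and 0 lower. The third was PTRF, a cavin on another chromosome, at 6.57 and 17.8, while EHD2 lay within 2-fold at 30.9 and 38.3.

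The next 3 windows were also on 7q. From PDK4 to SMURF1 (chromosome 7, 95212809 to 98741743) the median was 1.03 and 6 of 11 genes were higher, such as TRRAP, a scaffold of histone acetylase complexes, at 8.08 FPKM with vehicle and 27.3 in the erlotinib-resistant library, and SMURF1, a ubiquitin ligase, at 10.3 and 30.1. From ARMC10 to SYPL1 (102715328 to 105753057) the median was 0.98, with SRPK2, a splicing kinase, at 8.24 and 22.8. From CLDN12 to CDK6 (90013035 to 92465941) it was 0.92, with CDK6 as above and ANKIB1 at 15.1 and 34.9. The fifth was on chromosome 1, from TTF2 to NBPF9 (117602949 to 145368684), across the centromere, with a median of 0.82 that came to 0.42 with the length trend removed and 1 gene of 11 higher.

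Set out by position, the genes of chromosome 7 from 70 to 120 Mb stood apart from the rest of the chromosome. These bounds were chosen after the values were seen. Of 168 genes there 39 were higher (23.2%) and 2 lower, 148 (88.1%) had a difference above 0 and the median was 0.63. With the GC or length trend removed the median was 0.60 or 0.66. Of the chromosome's other 269 genes, 9 were higher and 17 lower, and the median was -0.07, and over all other chromosomes the median was -0.00. By stretches of 10 Mb the medians were 0.37, 0.54, 0.62, 0.63 and 1.304 from 70 to 120 Mb, then 0.12 from 120 to 130 Mb. Without the last of those, which holds MET, the median over 70 to 110 Mb was 0.57, with 30 of 154 higher.

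Genes beyond MET differed among themselves. ST7, 0.281 Mb from the start of MET, stood at 10.4 FPKM with vehicle and 24.2 in the erlotinib-resistant library (1.14), NAA38 at 1.51 Mb had a difference of 0.90, TSPAN12 at 4.11 Mb of 0.56 and ING3 at 4.28 Mb of 0.14. Farther out, FAM3C at 4.68 Mb had a difference of 0.32, FLNC at 12.2 Mb of 1.59 and HIPK2 at 22.9 Mb of 1.3004. FLNC and HIPK2 were the only higher genes of their stretches. From 120 to 130 Mb 1 of 24 genes was higher and 2 were lower, HILPDA (-1.13) and AHCYL2 (-1.18). From 130 to 140 Mb 1 of 22 was higher and 2 lower, with a median of 0.06. The genes beyond MET were picked after their values were seen. EGFR lies on the other arm, where the stretch from 50 to 60 Mb had 1 of 14 genes higher, EGFR itself, and a median of 0.06. SEC61G, its near neighbour and the gene with the highest FPKM in the erlotinib-resistant library, was level at 5596 and 5756. Between the dual-resistant and vehicle libraries the median was 0.27 from 70 to 120 Mb, 0.25 over the rest of the chromosome and -0.07 over all other chromosomes. That comparison shares the vehicle library with the one described here. No DNA copy number was measured, so copy number was not tested.

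**Figure D5:**
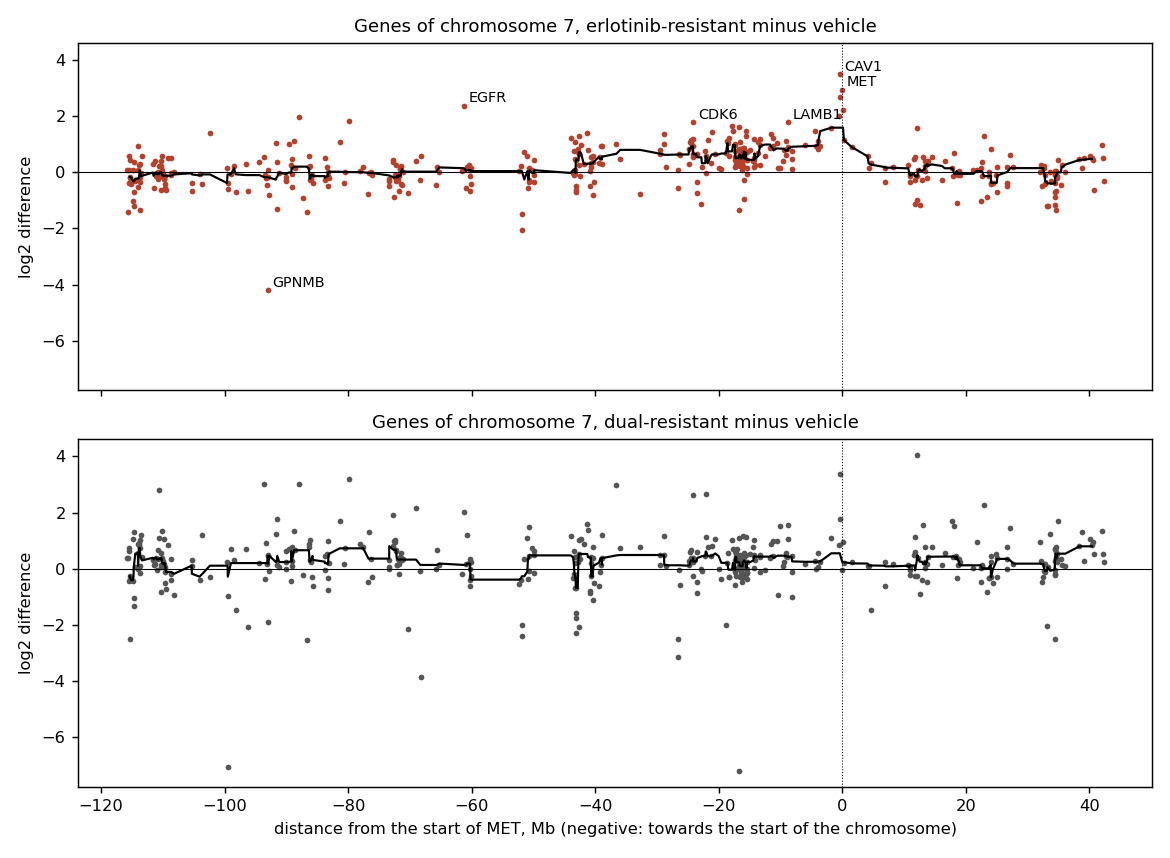
Log2 difference of each protein-coding gene of chromosome 7 against its distance from the start of MET in Mb, for the erlotinib-resistant (top) and dual-resistant (bottom) library minus vehicle, with a line for the running median of 11 genes. Genes with a missing value or a listed 0 in the dual-resistant column are left out of the bottom plot. The top line lies above 0 over the stretch before MET and peaks near MET at 1.58, where the single genes MET and CAV1 stand at 2.93 and 3.48. The bottom line shows no such step (medians of 0.27 and 0.25).

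The lowest windows held clusters of related genes. The lowest ran from UTP3 to CXCL2 (chromosome 4, 71554196 to 74964997), with a median of -1.53 and 6 of 11 lower, all 6 of them CXC chemokines, such as CXCL5 at 244 FPKM with vehicle and 83.9 in the erlotinib-resistant library and CXCL3 at 16.4 and 4.62. The 5 other genes of the window ran from -0.59 in UTP3 to 0.56 in MOB1B. The next ran on chromosome 6 from AGPAT1 to HLA-DMA (32135983 to 32920899), with a median of -0.91, and held TAP1 at 49.4 and 20.6. Another, on chromosome 11 from PPP1CA to UNC93B1 (67165652 to 67771593), had a median of -0.79 and held GSTP1. A further one, on chromosome 16 from DOC2A to SEPHS2 (30016835 to 30457224), had a median of -0.77 and held the glycolytic enzyme ALDOA at 863 and 471. With the length trend removed the last 2 were -0.64 and -0.64.

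Noncoding genes were few and mostly within 2-fold. Of 128 long noncoding RNAs 6 were higher and 4 lower, and the median was -0.05. All 16 measured intergenic and antisense RNAs lay within 2-fold, from ZNFX1-AS1 (756 FPKM with vehicle and 388 in the erlotinib-resistant library) to HNRNPU-AS1 (3.59 and 7.93). Of 13 snoRNA host genes 1 was higher, SNHG7 (15.4 and 32.3). Small nucleolar and nuclear RNAs, which are short and poorly captured in such libraries, were lower for 7 of 19 and higher for 3, and their median of -0.27 ran from -0.89 with genes listed at 0 kept to 0.19 over the alternatives.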

How the data were processed

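Gene-level expression was deposited by the authors as FPKM in a single table with 1 column per library. Per the submitters' processing notes, TopHat 1.3, Cufflinks 1.3 and GRCh37 were used. For the annotation release and the strandedness, nothing was given in the sources used. From the deposited FPKM, rows that share a symbol were summed, a pseudocount of 1 was added and the log2 difference was taken with Python 3.11.15, pandas 2.3.3 and numpy 2.4.6. Genes with 5 FPKM or more in 1 of the 2 libraries were kept, and exact zeros and missing values were set aside. Calls are by size (2-fold and 4-fold), since 1 library per population allows no test. The calculations were tested on simulated data.

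The comparison, the gene lists and the families were chosen with earlier results of these data known. The genes named were EGFR, MET, the 15 highest and 15 lowest, up to 4 in each direction per list or family, up to 5 in each of the 5 highest and 5 lowest windows of 11 neighbours, and those at the FPKM limit, among the highest or listed at 0. Neighbours of MET, JUN, JUNB, IFITM1, IFI27 and cell type markers were named in addition, for their place, their promoter or their role. Promoter bases are from RefSeq on GRCh38.p14, and other coordinates are those of the table, on GRCh37. Scaling, the pseudocount, the FPKM limit, the handling of repeated symbols and zeros and the gene types were varied, and corrections for GC content and transcript length were added after seeing the data. Some of the genes this rule selects, and 1 window, are not reported here.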

Additional observations from a re-analysis of the deposited data

How the results depend on the processing

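With 1 library per population, neither replicate error nor a left-out library could be examined. No paired analysis was possible because each population has a single library. Over 11 alternatives, 26 of 1334 values of counts, lists, chromosomes and windows moved beyond the tolerance and 1 reversed, and the cause was not tested. The tolerance was 1.5 times for counts, 1.5-fold for medians and 10 points for the share of higher calls. A median was called reversed only if it was 1 or more in size and changed sign. All chromosome medians were smaller than that, so their sign changes are not in these counts. With equal sums the medians of chromosomes 1, 5, 11, 14, 16, 17, 19 and X turned from under 0 to above 0. Equal sums of FPKM gave 586 genes higher by 2-fold, 27 by 4-fold and a share of higher calls of 60.66%. A pseudocount of 0.1 gave 40 genes higher by 4-fold. A pseudocount of 5 gave 137 higher and 304 lower, 9 and 54 by 4-fold, a share of 31.07%, medians of -1.131 for class II genes and -1.522 for the complement list, and 19 higher genes on chromosome 7 from 70 to 120 Mb. With a limit of 1 FPKM the medians were 0.01253 for the EGF family, -0.3946 for mesenchymal genes, -0.4717 for squamous genes and -0.4777 for leukocyte, endothelial, fibroblast and erythroid markers, the last reversed from 1.32 of CD68 alone. With a limit of 20 FPKM, 167 genes were higher, 260 lower and 69 lower by 4-fold, and the medians were -1.175 for class II genes, 0.1391 for metallothioneins, -0.1141 for mesenchymal genes, -0.8338 for NOTCH genes, 1.487 for caveolae genes and 0.7353 for ephrins and Eph receptors. Keeping genes listed at 0 gave 47 genes higher by 4-fold and a median of -0.8877 for small nucleolar and nuclear RNAs. The effector, class I, class II, chemokine, complement and AP-1 lists stayed under 0, and the 3 mitosis lists, the aryl hydrocarbon receptor list and the NRF2 list above 0, in all of these settings. The sign of the median turned in at least 1 setting for the ERK output, NF-kB, NOTCH, WNT, YAP, DNA replication, p53, BCL2, keratin, tight junction, integrin, laminin, cholesterol, fatty acid, efflux, checkpoint, mesenchymal, metallothionein, other receptor kinase, matrix protease, endoplasmic reticulum chaperone, ATP synthase and other-cell marker lists, and for the cytosolic ribosomal, ephrin and Eph, TNF receptor, solute carrier, tripartite motif, tubulin, small nucleolar, snoRNA host and intergenic RNA families.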
